A study of Arabidopsis thaliana with 12 samples.

Results

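The 38 genes described here encode the machinery of the plant cell cycle and of DNA replication. They were picked by locus from a list of known roles, by a rule that uses no measured value, out of 27655 genes in an expression table of Arabidopsis thaliana seedlings. The members and the further lists below were nonetheless chosen with earlier results of these data known, so the shares given describe them and are no blind test. They comprise 7 genes for entry into the cycle (6 D-type cyclins and the kinase CDKA;1), the factors E2FA and E2FC, 11 S phase genes, 14 mitosis genes and 4 inhibitors of cyclin-dependent kinases. All 38 loci were found, and all 38 were among the 20005 genes with at least 1 TPM (a transcript level scaled for gene length and library total) in at least 3 libraries, which is the set that was tested.

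In plants, D-type cyclins bind CDKA and release E2F transcription factors from the retinoblastoma protein, and E2F factors then switch on the genes that license and copy DNA in S phase. Later in the cycle, MYB3R transcription factors act on mitosis-specific activator (MSA) elements in the promoters of B-type cyclins and other mitotic genes, and B-type kinases, found in plants, drive the cell into division. KRP and SIAMESE proteins hold the kinases back, the SIAMESE family being known for its part in the switch from division to endoreplication. In a seedling S phase and mitosis transcripts come mostly from the shoot and root meristems and from young leaves.

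All plants were wild type Columbia, grown for 7 days at 21°C in short days of 8 h light and 16 h dark. At 1 h after lights on a share of them was moved to 27°C while the rest stayed at 21°C, and in each case some received mannitol, a sugar alcohol used as an osmotic, drought-like treatment. The sources used here give no dose for it. Seedlings were collected 12 h later, 5 h into the dark, which gives 4 groups of 3 libraries: 27°C with mannitol, 27°C without it, 21°C with mannitol, and 21°C without it. The series title names drought, thermomorphogenesis (growth in warmth) and the clock protein ELF3, and the design asks how mannitol alters the response to warmth. The labels number the libraries of a group 1 to 3 without saying whether plants were grown or harvested separately, so p-values measure only the spread between these samples. With 1 collection time, a changed level cannot be told apart from a shifted daily phase, and in bulk seedling RNA fewer dividing cells cannot be told apart from less RNA per cell.

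Depth was even, at 13477706 to 14572531 reads per library as recovered from the TPM values, and replicates correlated at 0.981 to 0.992 on the log2 scale over all tested genes. Within these libraries PCNA1 rested on 165 to 464 reads, CYCB1;1 on 96 to 218, and the 2 SIAMESE-family members on 3 to 27. TPM values share a fixed sum in every library, and on this scale the median difference of all tested genes lay above 0 in each comparison. With median-of-ratios rescaling the differences shift down, in log2 units by 0.09 at 27°C against 21°C, 0.10 with mannitol at 21°C, 0.19 with mannitol at 27°C, 0.17 for warmth in the presence of mannitol and 0.27 for both treatments. The counts of members are therefore given under both scalings.

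The E2F and MSA elements are short enough to be read off the promoters, which are taken here as the 250 bases before each gene's annotated start in the TAIR10.1 assembly of RefSeq. Searched on both strands, TTTCCCGC or TTTGGCGC (the E2F letters) occurred in 263 of 27443 promoters of protein-coding genes, or 0.958%. They occurred in 5 of the 11 S phase promoters, those of MCM2, MCM3, MCM4, MCM5 and MCM6, in that of CYCD3;3, and in none of the 14 mitosis promoters. CCAACGG or CTAACGG (the MSA letters) occurred in 709 promoters, or 2.58%, and in 5 of the 14 mitosis promoters, those of 3 B1-type and 2 B2-type cyclins, but in none of the S phase promoters. A match is a description of the letters and not a bound site, and other spellings of these elements were not searched. The 6 promoters below, 3 of each kind, were picked from those with a match, and their genes all fell in the warmth comparison that follows. Left out are the matched promoters of CYCB1;3 and CYCB2;1, whose genes did not pass there, and those of MCM3, MCM5 and CYCD3;3. The promoters of PCNA1, CDT1A, CYCA3;1, CDKB1;1 and KNOLLE hold no match. The choice therefore shows no link between letters and response. The promoters are written 5′ to 3′ on the strand of the gene with the matched letters in capitals:
MCM2: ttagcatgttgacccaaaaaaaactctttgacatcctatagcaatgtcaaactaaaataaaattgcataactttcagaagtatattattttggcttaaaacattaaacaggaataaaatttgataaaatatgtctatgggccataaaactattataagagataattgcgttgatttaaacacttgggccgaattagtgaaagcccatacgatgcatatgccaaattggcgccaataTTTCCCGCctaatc
MCM4: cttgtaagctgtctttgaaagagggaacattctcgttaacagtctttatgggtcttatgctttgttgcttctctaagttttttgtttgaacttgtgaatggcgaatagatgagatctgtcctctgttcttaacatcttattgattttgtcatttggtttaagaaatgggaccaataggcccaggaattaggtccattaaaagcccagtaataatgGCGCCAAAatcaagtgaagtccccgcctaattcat
MCM6: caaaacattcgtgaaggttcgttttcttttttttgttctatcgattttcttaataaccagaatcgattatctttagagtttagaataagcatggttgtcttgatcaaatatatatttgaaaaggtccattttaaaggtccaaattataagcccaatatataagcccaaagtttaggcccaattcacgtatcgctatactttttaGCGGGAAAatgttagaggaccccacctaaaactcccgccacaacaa
CYCB1;1: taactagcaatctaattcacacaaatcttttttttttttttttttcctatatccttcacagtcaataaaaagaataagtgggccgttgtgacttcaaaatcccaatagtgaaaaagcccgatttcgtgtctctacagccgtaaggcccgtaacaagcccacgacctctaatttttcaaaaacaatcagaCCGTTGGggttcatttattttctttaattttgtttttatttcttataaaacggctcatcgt
CYCB1;2: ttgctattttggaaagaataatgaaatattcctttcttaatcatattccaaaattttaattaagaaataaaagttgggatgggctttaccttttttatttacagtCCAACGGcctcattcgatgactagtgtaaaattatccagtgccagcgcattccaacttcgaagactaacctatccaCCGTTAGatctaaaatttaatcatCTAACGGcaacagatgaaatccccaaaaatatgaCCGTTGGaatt
CYCB2;2: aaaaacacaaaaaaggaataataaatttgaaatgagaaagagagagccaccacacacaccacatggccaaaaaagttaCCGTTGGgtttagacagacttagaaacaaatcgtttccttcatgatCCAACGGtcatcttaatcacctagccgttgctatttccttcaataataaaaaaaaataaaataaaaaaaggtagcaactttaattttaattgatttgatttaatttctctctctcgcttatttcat

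The MCM2 promoter lies at chr1:16969964-16970213 on the plus strand, with its match starting 14 bases before the gene. That of MCM4 is chr2:7130730-7130979 (minus strand), with a match 35 bases before the gene. The MCM6 promoter is chr5:18010668-18010917 (minus strand), with a match 46 bases before the gene. Among the cyclins, the first promoter, at chr4:17624309-17624558 on the minus strand, holds 1 MSA match, 61 bases before the gene. The second, at chr5:1861704-1861953 on the minus strand, holds 4 matches, between 145 and 11 bases before the gene. The third, at chr4:16901346-16901595 on the plus strand, holds 2 matches, at 172 and 126 bases. None of the 6 windows overlaps an annotated exon of another gene.

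Levels differed widely among the 38 genes. KNOLLE, the syntaxin that fuses vesicles into the new cell plate at cytokinesis, was the highest, between 43.9 and 74.5 TPM over the 12 libraries. The A-type cyclin CYCA2;1 was the lowest, between 0.524 and 1.28 TPM. The summed level of the 11 S phase genes lay between 169 and 191 TPM at 27°C with mannitol, between 161 and 166 TPM at 27°C, between 207 and 222 TPM at 21°C with mannitol and between 252 and 273 TPM at 21°C. These 4 ranges do not overlap, and warm libraries are the lower ones. The 14 mitosis genes summed to between 232 and 256 TPM at 27°C with mannitol, 207 and 232 TPM at 27°C, 263 and 284 TPM at 21°C with mannitol and 279 and 286 TPM at 21°C. Both warm groups stood below both cool groups, while the 2 warm ranges and the 2 cool ranges each overlap.

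**Figure D1:**
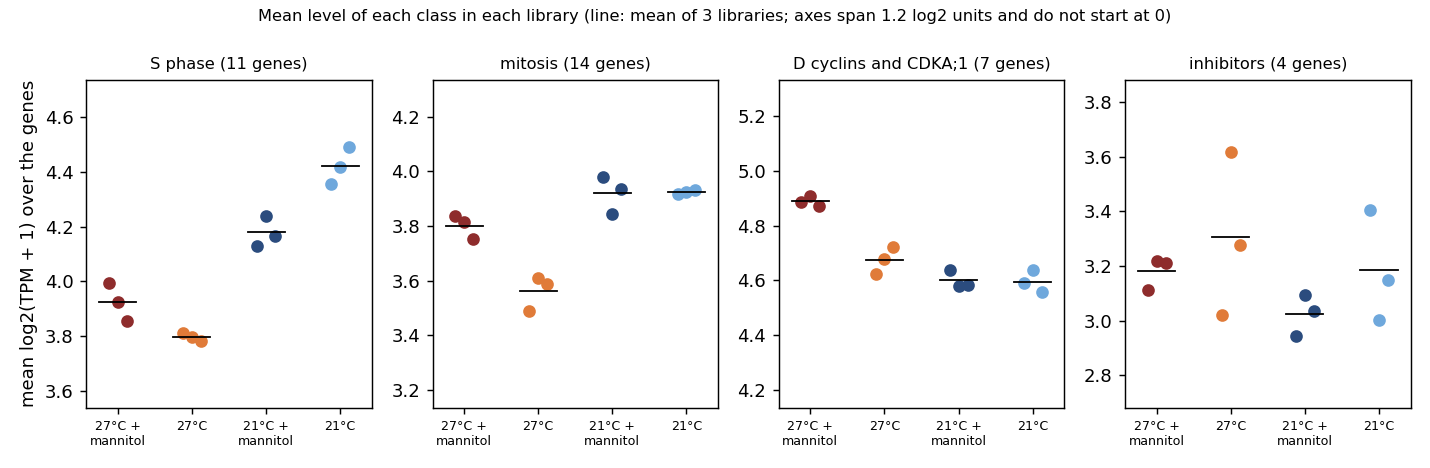
Mean log2(TPM + 1) over the genes of a class (vertical axis) in each of the 12 libraries (points), by group, with a line at the mean of 3 libraries. S phase and mitosis libraries at 27°C lie below those at 21°C, D cyclins and CDKA;1 are highest at 27°C with mannitol, and the inhibitor libraries at 27°C and at 21°C without mannitol overlap.

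Warmth alone, 27°C against 21°C, lowered most S phase and mitosis transcripts, while entry genes went both ways. Of the 38 genes 20 fell and 3 rose, or 52.6% and 7.89%, where 16.6% and 28.2% of all tested genes fell and rose. In either direction 23 of 38 changed, against 44.8% of all tested genes. The median log2 difference of the 38 was -0.37, against 0.09 for all tested genes. With rescaling 23 fell and 2 rose. Here and below, called means a Benjamini-Hochberg adjusted p below 0.05 over all tested genes in limma, and a difference is in log2(TPM + 1) with its standard error.

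S phase transcripts fell in 10 of 11 cases, and none rose. PCNA1 (AT1G07370), the sliding clamp that holds DNA polymerase on its template, had 26.5, 19.3 and 20.3 TPM at 27°C with mannitol, 19.2, 28.3 and 26.0 TPM at 27°C, 33.1, 36.0 and 41.6 TPM at 21°C with mannitol and 46.6, 51.3 and 49.8 TPM at 21°C. All 6 warm libraries lay below all 6 cool ones. It fell by 0.99 ± 0.14 at 27°C, and its TPM fell by 50.2% (adjusted p = 4.01e-05, limma). CDT1A (AT2G31270), which loads the replicative helicase onto origins, had 15.1, 14.2 and 15.4 TPM at 27°C with mannitol, 12.6, 12.4 and 12.8 TPM at 27°C, 18.8, 21.5 and 19.8 TPM at 21°C with mannitol and 23.1, 21.7 and 25.2 TPM at 21°C. No 2 of its 4 groups overlap, and the 27°C libraries are the lowest. It fell by 0.84 ± 0.09 (adjusted p = 3.09e-06). CYCA3;1 (AT5G43080), a cyclin of S phase entry, had 4.82, 4.58 and 5.10 TPM at 27°C with mannitol, 4.18, 4.25 and 4.48 TPM at 27°C, 8.07, 6.85 and 6.20 TPM at 21°C with mannitol and 8.30, 8.01 and 9.31 TPM at 21°C. It fell by 0.84 ± 0.12 (adjusted p = 5.48e-05), with every warm library below every cool one.

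The 6 subunits of the MCM helicase, which unwinds DNA ahead of the fork, fell together, by between 0.43 (MCM4) and 0.77 (MCM6). MCM6 (AT5G44635) had 9.12, 8.20 and 8.78 TPM at 27°C, against 15.7, 14.8 and 15.9 TPM at 21°C, with no overlap (-0.77 ± 0.11, adjusted p = 6.16e-05). MCM7 (AT4G02060) fell by 0.71 ± 0.10, MCM2 (AT1G44900) by 0.57 ± 0.11, MCM3 (AT5G46280) by 0.47 ± 0.09 and MCM5 (AT2G07690) by 0.46 ± 0.10. PCNA2 (AT2G29570), the second clamp gene, fell by 0.46 ± 0.11. The sources used here do not say how reads common to the similar clamp copies were assigned. CDC6 (AT2G29680), the partner of CDT1A in origin licensing, was the exception at -0.34 ± 0.17 (adjusted p = 0.127), with 2.86 to 3.62 TPM at 27°C overlapping 3.35 to 4.92 TPM at 21°C. PCNA1, CDT1A and CYCA3;1, which have no E2F letters in the window read, fell, and so did MCM2 to MCM6. Only the exact spellings given above were read, and the CDT1A window ends in gcgggaa, so a match across the gene start would not be seen. The part of E2F sites in these falls was not tested.

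Mitosis transcripts fell in 8 of 14 cases and none rose, all 14 differences being negative. CYCB1;1 (AT4G37490), a B-type cyclin much used as a marker of cells about to divide, had 10.4, 9.48 and 9.14 TPM at 27°C with mannitol, 7.22, 7.54 and 6.95 TPM at 27°C, 13.8, 11.999 and 15.0 TPM at 21°C with mannitol and 14.1, 15.1 and 14.2 TPM at 21°C. Each warm library was below each cool one, and those at 27°C without mannitol were the lowest. It fell by 0.91 ± 0.10, and its TPM fell by 49.9% (adjusted p = 6.52e-06, limma). CDKB1;1 (AT3G54180), a mitotic kinase of plants, had 12.4, 13.1 and 12.3 TPM at 27°C with mannitol, 8.36, 10.96 and 9.65 TPM at 27°C, 17.4, 15.4 and 13.9 TPM at 21°C with mannitol and 15.5, 13.5 and 14.0 TPM at 21°C. It fell by 0.53 ± 0.11 (adjusted p = 0.00151), the 27°C libraries lying apart from all others. Its relative CDKB2;2 (AT1G20930) had 8.92, 10.14 and 11.7 TPM at 27°C, against 12.98, 14.9 and 17.0 TPM at 21°C and fell by 0.50 ± 0.15 (adjusted p = 0.0124).

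KNOLLE (AT1G08560) fell by 0.42 ± 0.11, and its 3 libraries at 27°C had 46.2, 62.8 and 47.8 TPM, against 64.5, 74.5 and 70.7 TPM at 21°C. The other falls were those of CYCB1;2 (-0.47 ± 0.08), CYCA1;1 (-0.44 ± 0.10), CYCB2;2 (-0.39 ± 0.11) and CYCB1;4 (-0.34 ± 0.10). The 6 mitosis genes not called lay between -0.28 and -0.03, among them the abundant kinase CDKB2;1 (AT1G76540) with 35.5, 40.1 and 35.4 TPM at 27°C, against 40.0, 37.1 and 37.6 TPM at 21°C.

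Entry genes went both ways, with 3 of 7 higher and 1 lower. These are 42.9% and 14.3%, against 28.2% and 16.6% of all tested genes. With rescaling 2 were higher and 2 lower. CYCD1;1 (AT1G70210), a D-type cyclin, had 26.3, 28.5 and 26.4 TPM at 27°C with mannitol, 21.1, 16.3 and 20.7 TPM at 27°C, 16.9, 14.0 and 15.8 TPM at 21°C with mannitol and 12.1, 14.1 and 13.5 TPM at 21°C. Its 27°C libraries all exceed the 21°C ones, and those with both treatments are the highest. It rose by 0.51 ± 0.11 (adjusted p = 0.00144, limma). CDKA;1 (AT3G48750), the kinase that D cyclins activate, had 49.3, 54.3 and 51.8 TPM at 27°C with mannitol, 48.1, 45.9 and 46.5 TPM at 27°C, 35.6, 36.2 and 38.3 TPM at 21°C with mannitol and 33.7, 35.3 and 38.2 TPM at 21°C. Warm libraries were above all cool ones, and it rose by 0.38 ± 0.07 (adjusted p = 0.000442). CYCD3;1 (AT4G34160), known from the response to cytokinin and sugar, had 71.0, 62.7 and 66.6 TPM at 27°C with mannitol, 55.0, 53.4 and 51.0 TPM at 27°C, 43.9, 40.8 and 43.3 TPM at 21°C with mannitol and 46.8, 44.4 and 42.8 TPM at 21°C. It rose by 0.25 ± 0.07 (adjusted p = 0.00895), a call that rescaling ended at 0.15 (adjusted p = 0.0956). CYCD4;1 (AT5G65420), a low D-type cyclin with 20 to 60 reads a library, had 1.39, 2.54 and 1.99 TPM at 27°C, against 3.89, 3.48 and 2.84 TPM at 21°C and fell by 0.58 ± 0.19 (adjusted p = 0.025). The other 3 D-type genes lay between -0.16 and 0.12 and were not called.

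E2FA (AT2G36010), an activating E2F factor, had 5.92, 5.69 and 5.02 TPM at 27°C with mannitol, 5.44, 4.39 and 3.97 TPM at 27°C, 5.64, 8.64 and 7.44 TPM at 21°C with mannitol and 7.57, 7.09 and 8.54 TPM at 21°C. It fell by 0.65 ± 0.15 at 27°C (adjusted p = 0.00293), with no overlap between 27°C and 21°C. E2FC (AT1G47870), described as a repressor, stood at -0.22 ± 0.11 and was not called (adjusted p = 0.111), though its libraries at 27°C (9.24 to 10.1 TPM) lay below those at 21°C (10.8 to 11.7 TPM).

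None of the 4 inhibitors was called in warmth by limma, none had an unadjusted p below 0.05, and voom on recovered reads called none. KRP2 (AT3G50630), a KRP inhibitor, had 22.1, 32.1 and 23.0 TPM at 27°C, against 25.5, 25.0 and 27.2 TPM at 21°C (-0.03 ± 0.13, 95% interval -0.30 to 0.24). KRP1 (AT2G23430) stood at -0.25 ± 0.16, SIM (AT5G04470) at 0.42 ± 0.29 and SMR1 (AT3G10525) at 0.34 ± 0.23, and the groups of each overlap. The 95% interval was -0.19 to 1.03 for SIM and -0.15 to 0.84 for SMR1, both with few reads.

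**Figure D2:**
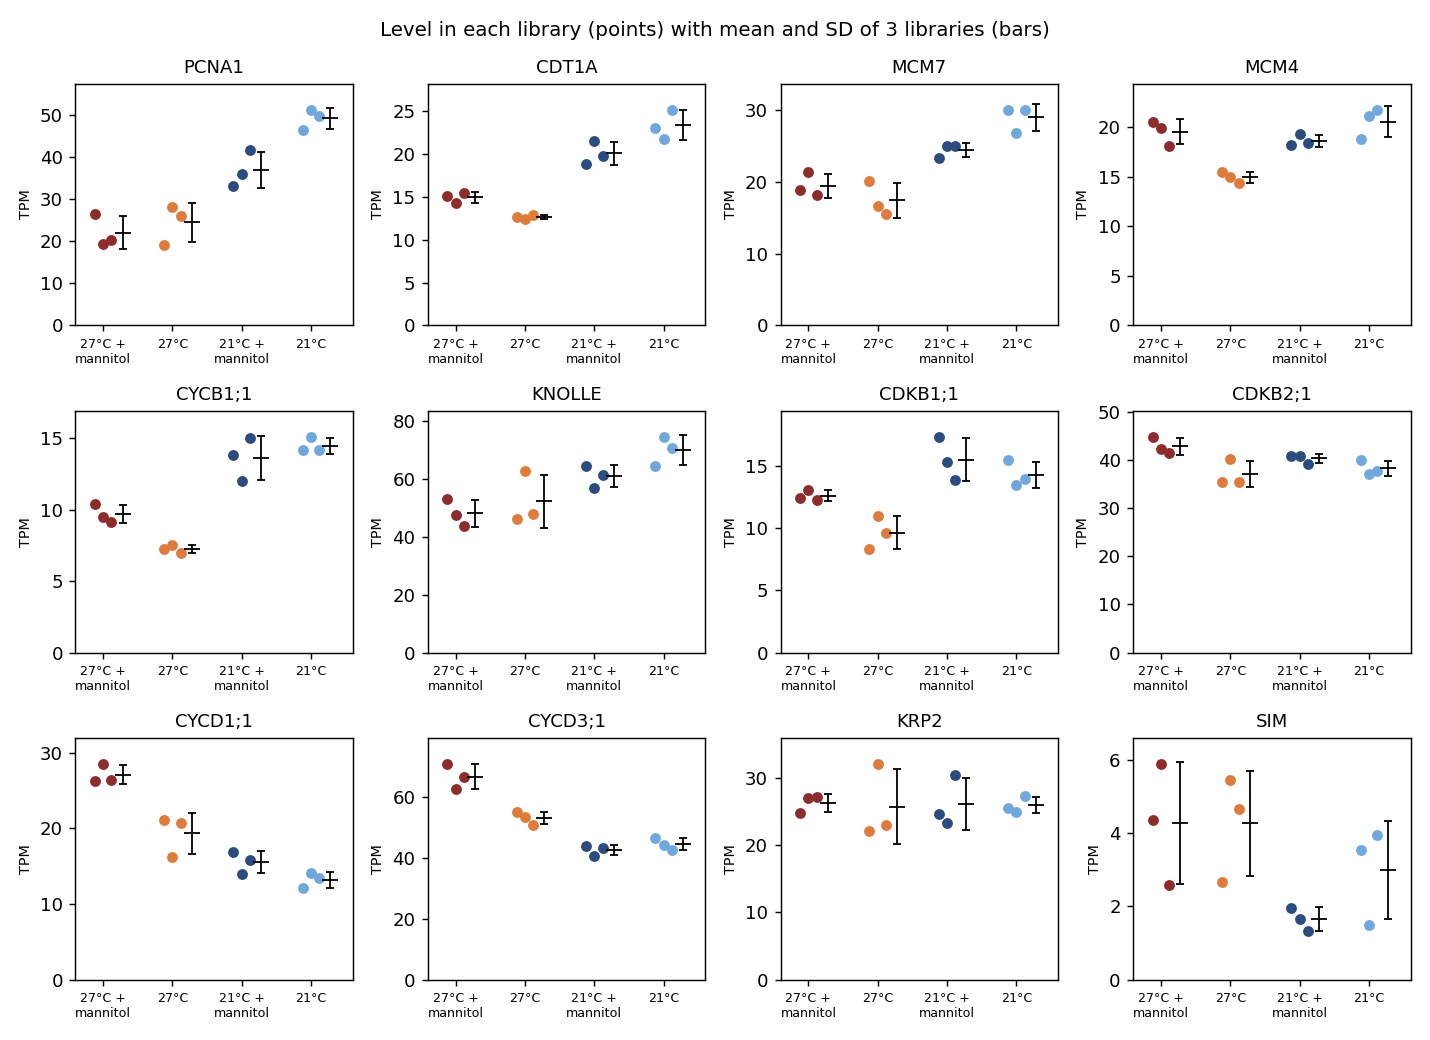
TPM (vertical axes, starting at 0) of 12 of the genes in each library (points) by group, with the mean and SD of 3 libraries (bars). PCNA1, CDT1A, MCM7 and CYCB1;1 are lower in both warm groups than in both cool groups, CYCD1;1 and CYCD3;1 are highest at 27°C with mannitol, and KRP2 overlaps in all groups.

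Of the 23 calls in warmth 3 depended on single libraries. CYCD4;1 was lost without 21°C replicate 1 or 2 or 27°C replicate 1 or 3 (adjusted p = 0.0858, 0.0650, 0.109 and 0.0528), CYCB1;4 (AT2G26760) without 21°C replicate 2 (adjusted p = 0.0567) and CDKB2;2 without 21°C replicate 3 (adjusted p = 0.0579), while the other 20 held without any 1 library.

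Other genes of the same pathways, none of them members, are read against 16.6% lower and 28.2% higher over all genes. Of 27 further genes of the replication fork and origin, 16 fell and 1 rose in warmth, with CDT1B at -0.92 ± 0.13 and RNR1, the large subunit of ribonucleotide reductase, at -0.84 ± 0.12. With rescaling 17 fell and none rose. The 5 genes of the replicative histone H3.1, which packages new DNA, all fell, with a median of -0.86 and AT5G10390 at -1.03 ± 0.11. Of 13 further mitosis and cytokinesis genes 6 fell and none rose, the kinesin HIK by 0.64 ± 0.10 and the Aurora kinase AUR2 by 0.63 ± 0.13. Of 8 tested A and D cyclins outside the list 2 fell, CYCA3;2 by 0.49 ± 0.10 and CYCD5;1 by 0.43 ± 0.13, and none rose. Of 11 further inhibitors 2 fell, ICK6 and ICK5, by 0.46 ± 0.14 and 0.44 ± 0.14, and none rose.

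Among 11 transcription regulators of the cycle, DEL1, an atypical E2F factor, fell by 0.74 ± 0.16, 1 more fell, and MYB3R-3, described as a repressor of mitotic genes, rose by 0.39 ± 0.11. WEE1, a checkpoint kinase, fell by 0.64 ± 0.18, alone among 3 endocycle and checkpoint genes. Of 7 DNA damage genes only BRCA1 was called, at -0.40 ± 0.12.

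Markers of the shoot and of the stomatal lineage fell as well, while the root meristem list did not move one way. Of 5 tested markers of shoot meristem and young leaf, 4 fell, GRF5 by 0.76 ± 0.11 and ANT by 0.56 ± 0.08, both transcription factors of leaf growth, and their list summed to between 92.3 and 122 TPM at 27°C and between 141 and 155 TPM at 21°C. The meristem genes CLV3 and WUS never passed 0.804 and 0.263 TPM, were at 0 in some libraries and were not tested. Of 6 stomatal lineage markers, a dividing epidermal lineage, 5 fell, MUTE by 1.17 ± 0.28 and EPF2 by 1.06 ± 0.22, with sums between 57.0 and 63.3 TPM at 27°C and between 80.8 and 92.6 TPM at 21°C. In the root meristem list 1 of 5 rose (SHR, 0.23 ± 0.08) and 1 fell (WOX5, -0.64 ± 0.20), with sums between 67.7 and 78.6 TPM at 27°C and between 62.2 and 71.3 TPM at 21°C. With rescaling the rise was not called. Levels were low for MUTE, between 0.292 and 3.64 TPM over the libraries, and for WOX5, between 0.715 and 4.04 TPM. Of 5 root tissue markers 2 rose and 1 fell, and of 4 mature leaf markers 1 rose and 2 fell, CAB3, a light-harvesting protein, by 1.38 ± 0.08. The mature leaf list summed to between 52315 and 55325 TPM at 27°C and between 69333 and 71124 TPM at 21°C. It holds RBCS1A, RCA, CAB3 and CAB1, and the root tissue list holds NRT2:1, NRT1.1, CASP1, PER64 and AT5G66390. NRT1.1, at 88.7 to 202 TPM over the libraries, weighs most in the root tissue sums. In bulk RNA, regulation of such genes cannot be told apart from a changed share of a tissue. The part of these tissues in the fall of S phase and mitosis transcripts was not tested.

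**Figure D3:**
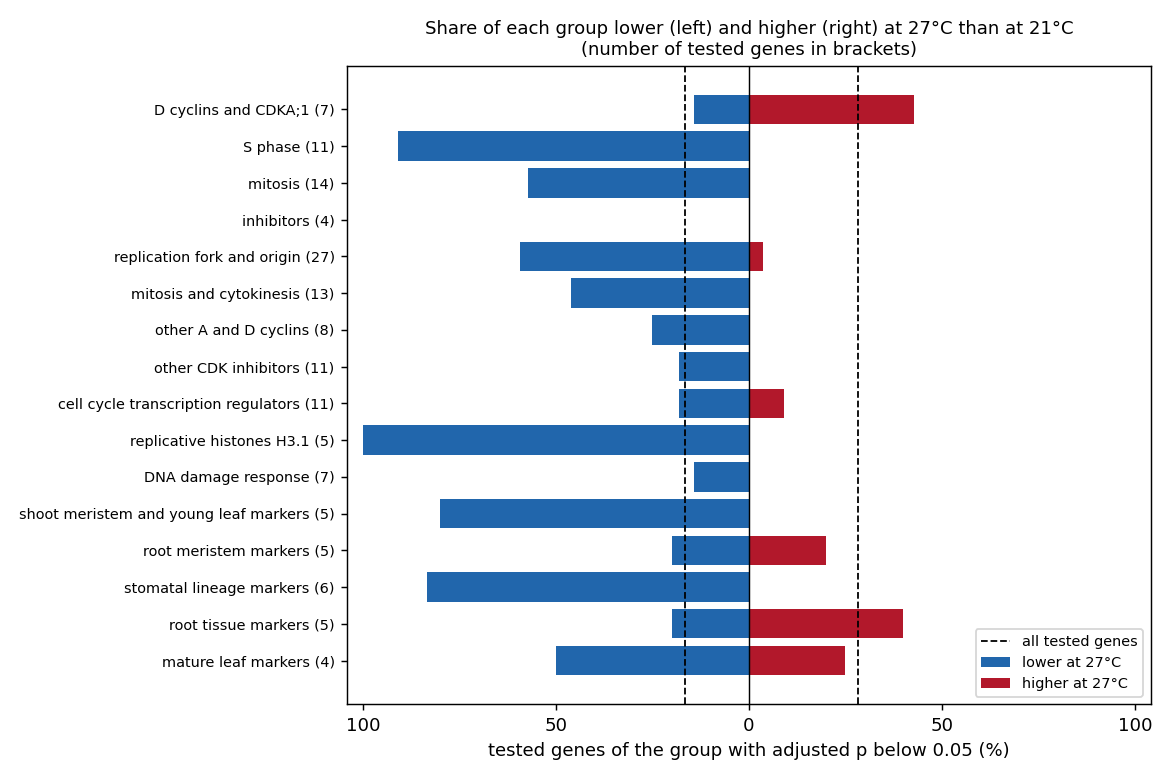
Share of each class or list (rows, with the number of tested genes) called lower (left bars) or higher (right bars) at 27°C than at 21°C, in percent, beside the shares of all tested genes (dashed lines at 16.6% and 28.2%). The S phase class reaches 90.9% lower, the 5 H3.1 histone genes 100%, and the inhibitors have no bar.

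Mannitol at 21°C moved few of the genes. Of 38, 4 fell and 1 rose, or 10.5% and 2.63%, against 4.61% and 15.4% of all tested genes, and the median was -0.08 against 0.08. In either direction 5 of 38 changed, against 20.0% of all tested genes. With rescaling 8 fell and none rose. S phase genes carried 3 of the falls: PCNA1 by 0.41 ± 0.14 (adjusted p = 0.0483, limma), MCM5 by 0.31 ± 0.10 and MCM3 by 0.30 ± 0.09. MCM3 had 20.9, 21.0 and 20.6 TPM at 21°C with mannitol, against 24.0, 26.6 and 26.8 TPM at 21°C. Its 2 groups do not overlap, and the same holds for PCNA1 in the values above. MCM5 had 20.7, 22.3 and 22.0 TPM at 21°C with mannitol, against 26.6, 25.0 and 29.6 TPM at 21°C, also apart. All 11 S phase differences were negative, with a median of -0.23.

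No mitosis gene was called with mannitol at 21°C, none had an unadjusted p below 0.05, and voom called none; rescaling called 1. Their differences ran from -0.19 (KNOLLE) to 0.11 (CDKB1;1), 8 of 14 positive. With median-of-ratios rescaling 1 of 14 was positive and 13 were negative. Among the D-type cyclins CYCD3;2 (AT5G67260) had 34.7, 31.9 and 33.3 TPM at 21°C with mannitol, against 42.9, 43.7 and 36.6 TPM at 21°C and fell by 0.29 ± 0.09 (adjusted p = 0.0319). CYCD3;3 (AT3G50070) had 37.3, 43.2 and 41.5 TPM at 21°C with mannitol, against 33.3, 32.1 and 34.6 TPM at 21°C and rose by 0.28 ± 0.09 (adjusted p = 0.0453), a call that rescaling ended (0.17, adjusted p = 0.212). No E2F gene or inhibitor was called by limma, by voom or at an unadjusted p below 0.05, and SIM stood at -0.54 ± 0.29 with 1.96, 1.67 and 1.32 TPM at 21°C with mannitol, against 3.55, 1.48 and 3.96 TPM at 21°C.

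All 5 of these calls rested on the full set of libraries, since each was lost when 1 of several was left out, and the count of falls ran between 0 and 5. It was 0 without 21°C replicate 2 or without 21°C with mannitol replicate 1 or 2, 1 without 21°C replicate 1 or 3 or 21°C with mannitol replicate 3, and 2 without 27°C replicate 3 or 27°C with mannitol replicate 2 or 3. In the wider lists none of the 27 fork and origin genes and none of the 13 mitosis and cytokinesis genes was called (limma, also none at an unadjusted p below 0.05 and none by voom). Among 11 further inhibitors 3 rose (27.3%, against 15.4% of all tested genes) and none with rescaling, KRP6 by 0.59 ± 0.19 and the locus AT1G08180 by 0.57 ± 0.16. Of 5 H3.1 histone genes 2 fell, AT5G10390 by 0.34 ± 0.11. Of the stomatal lineage markers 4 of 6 fell, EPF2 by 1.23 ± 0.22, to sums between 52.5 and 56.0 TPM, while the shoot list summed to between 153 and 158 TPM with 1 of 5 lower (GRF5, -0.42 ± 0.11). Root tissue markers rose in 4 of 5 cases, to sums between 330.4 and 361 TPM at 21°C with mannitol, against between 157 and 219 TPM at 21°C. All 4 mature leaf markers fell, to sums between 54284 and 55385 TPM at 21°C with mannitol, against between 69333 and 71124 TPM at 21°C, and both counts were the same with rescaling. Their part in the S phase falls was not tested.

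Mannitol at 27°C went with more rises than falls among the 38 genes on the deposited scale, and this depended on the scale. Of the 38 genes 12 rose and 1 fell, or 31.6% and 2.63%, against 27.7% and 6.80% of all tested genes, and the median was 0.20 against 0.17. In either direction 13 of 38 changed, against 34.5% of all tested genes. The share that rose is near that of all genes. With median-of-ratios rescaling none of the 12 rises was called and 2 genes fell, and with upper-quartile rescaling 1 rose, so these calls depend on the scaling.

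In mitosis 6 of 14 rose with mannitol at 27°C (42.9%, against 27.7% of all tested genes), and 0 rose with either rescaling. The mitosis median was 0.22, against 0.17 for all tested genes. CYCB1;4 had 18.2, 21.8 and 16.6 TPM at 27°C with mannitol, 14.6, 13.8 and 13.6 TPM at 27°C, 19.4, 19.4 and 18.4 TPM at 21°C with mannitol and 16.5, 19.1 and 18.4 TPM at 21°C and rose by 0.40 ± 0.10 (adjusted p = 0.00769, limma), its 27°C libraries being the lowest of the 4 groups. CYCB2;2 (AT4G35620) had 11.3, 10.98 and 10.7 TPM at 27°C with mannitol, 7.27, 8.49 and 8.67 TPM at 27°C, 11.8, 12.5 and 10.98 TPM at 21°C with mannitol and 12.03, 10.04 and 10.97 TPM at 21°C and rose by 0.39 ± 0.11 (adjusted p = 0.0102), again with the 27°C libraries below all others. CYCB1;1 rose by 0.37 ± 0.10 (adjusted p = 0.0125) and in the values above still lay below both cool groups. The other 3 rises were CDKB1;1, CYCB1;3 (AT3G11520) and CDKB2;1, by 0.36, 0.29 and 0.21. With rescaling CYCB1;4 stood at 0.21 and was not called (adjusted p = 0.129).

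In S phase 2 of 11 rose (18.2%, against 27.7% of all tested genes). MCM4 (AT2G16440) had 20.6, 19.9 and 18.1 TPM at 27°C with mannitol, 15.5, 14.9 and 14.4 TPM at 27°C, 18.2, 19.3 and 18.4 TPM at 21°C with mannitol and 18.8, 21.1 and 21.8 TPM at 21°C. It rose by 0.36 ± 0.09 (adjusted p = 0.00515), and its libraries with both treatments overlap those of both cool groups. MCM6 had 12.6, 12.2 and 9.41 TPM at 27°C with mannitol, against 9.12, 8.20 and 8.78 TPM at 27°C and rose by 0.35 ± 0.11 (adjusted p = 0.026). PCNA1, MCM3 and CDC6 had negative differences instead, between -0.15 and -0.10, and none was called. The median of the 11 was 0.16 as deposited and -0.02 with rescaling.

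Among entry genes, CYCD1;1 rose by 0.47 ± 0.11, CYCD3;1 by 0.32 ± 0.07 and CYCD3;3 by 0.30 ± 0.09, the last with overlapping groups (38.7, 38.97 and 32.6 TPM at 27°C with mannitol, against 27.3, 29.1 and 32.8 TPM at 27°C). E2FC had 12.8, 12.98 and 11.8 TPM at 27°C with mannitol, against 9.43, 10.09 and 9.24 TPM at 27°C and rose by 0.35 ± 0.11 (adjusted p = 0.0216). The single fall was that of SMR1, a SIAMESE-related inhibitor, with 0.626, 0.836 and 1.65 TPM at 27°C with mannitol, 1.93, 3.42 and 2.55 TPM at 27°C, 1.25, 1.80 and 1.47 TPM at 21°C with mannitol and 2.60, 1.83 and 1.198 TPM at 21°C. Its libraries with both treatments lay below those at 27°C (-0.85 ± 0.23, adjusted p = 0.0123), it rested on 3 to 17 reads a library, and it fell with rescaling as well (-0.95, adjusted p = 0.00824).

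**Figure D4:**
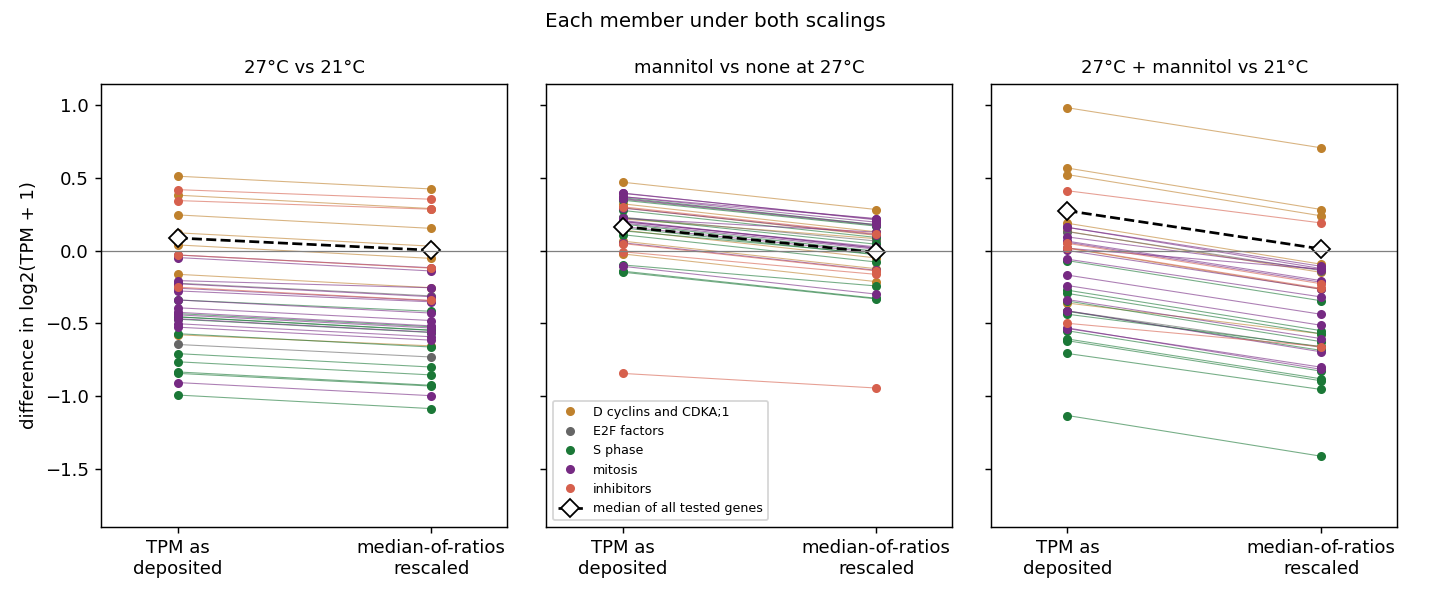
Difference in log2(TPM + 1) of each of the 38 genes (points, coloured by class) on the deposited scale and after median-of-ratios rescaling, in 3 comparisons, with the median of all tested genes (diamonds). Rescaling moves the median of all genes close to 0 and, for mannitol at 27°C, the median of the 38 genes from 0.20 to 0.02, while in warmth the S phase and mitosis genes remain below 0.

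The count of rises was 5 without 27°C with mannitol replicate 1 and 6 without its replicate 2, against 12 with all libraries, and 5 of the 13 calls held without any 1 library (CYCD1;1, CYCD3;1, MCM4, CYCB1;4 and CYCB2;2). SMR1 was lost without 27°C replicate 2 (adjusted p = 0.0542) or 27°C with mannitol replicate 1 (adjusted p = 0.0552), and voom called 7 of the rises. Elsewhere in the pathways 4 of 27 fork and origin genes rose (14.8%), the polymerase subunit POLA2 by 0.43 ± 0.11 and AT5G26680 by 0.38 ± 0.10. Of 13 mitosis and cytokinesis genes 2 rose (15.4%), CYCB2;4 by 0.34 ± 0.10 and CDC20.1 by 0.26 ± 0.08. Both shares lay below the 27.7% of all tested genes, and none of these rises was called with rescaling. Of 11 regulators 4 rose (36.4%, against 27.7% of all tested genes), among them RBR1, the retinoblastoma protein that restrains E2F, by 0.52 ± 0.12, and MYB3R-4, an activator of mitotic genes, by 0.46 ± 0.11. Of the 11, 1 rose with median-of-ratios and 2 with upper-quartile rescaling. The shoot and young leaf list rose in 3 of 5 cases, AN3 by 0.49 ± 0.09 and ANT by 0.38 ± 0.08, summing to between 135 and 142 TPM at 27°C with mannitol, against between 92.3 and 122 TPM at 27°C, and 1 of the 5 rose with rescaling. All 4 mature leaf markers fell, under both scalings, to sums between 32542 and 33869 TPM at 27°C with mannitol, against between 52315 and 55325 TPM at 27°C. Of 5 root tissue markers 2 rose, also with rescaling, to sums between 275 and 300.2 TPM at 27°C with mannitol, against between 221 and 234 TPM at 27°C. Of 5 root meristem markers 2 rose, none with median-of-ratios and 1 with upper-quartile rescaling. The part of these tissues in the mitosis rises was not tested.

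Warmth in mannitol-treated seedlings, 27°C with mannitol against 21°C with mannitol, lowered 10 of the 38 genes and raised 5, or 26.3% and 13.2%, against 16.5% and 37.5% of all tested genes (median -0.04 against 0.16). In either direction 15 of 38 changed, against 54.0% of all tested genes. With rescaling 15 fell and 4 rose. The S phase falls numbered 5 of 11, those of PCNA1 (-0.72 ± 0.14, adjusted p = 0.000497, limma), CYCA3;1 (-0.46 ± 0.12), CDT1A (-0.40 ± 0.09), MCM7 (-0.32 ± 0.10) and MCM3 (-0.32 ± 0.09). In the values above, the 2 groups do not overlap in PCNA1, CDT1A or CYCA3;1. MCM2, MCM4 and MCM5 lay between 0.01 and 0.06 as deposited and at -0.17, -0.11 and -0.14 with rescaling, where all 11 S phase differences were negative. MCM2 had 21.6, 20.8 and 20.6 TPM at 27°C with mannitol, against 20.9, 21.1 and 20.7 TPM at 21°C with mannitol.

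Of mitosis genes 5 of 14 fell, CYCB1;1 by 0.45 ± 0.10 (adjusted p = 0.00207), CDKB2;2 by 0.39 ± 0.15 and KNOLLE by 0.34 ± 0.11, the others by 0.25 and 0.27. CDKB2;2 had 8.77, 13.1 and 13.4 TPM at 27°C with mannitol, against 16.3, 15.4 and 14.7 TPM at 21°C with mannitol, and KNOLLE had 53.1, 47.4 and 43.9 TPM at 27°C with mannitol, against 64.4, 57.0 and 61.5 TPM at 21°C with mannitol. Both are lower in every library with warmth. Among entry genes CYCD1;1 rose by 0.76 ± 0.11 (adjusted p = 4.32e-05), CYCD3;1 by 0.63 ± 0.07 (adjusted p = 3.39e-06), CDKA;1 by 0.49 ± 0.07 and CYCD3;2 by 0.31 ± 0.09, and the first 3 were called under both scalings. SIM, the founding SIAMESE inhibitor, had 4.35, 5.89 and 2.58 TPM at 27°C with mannitol, against 1.96, 1.67 and 1.32 TPM at 21°C with mannitol and rose by 0.95 ± 0.29 (adjusted p = 0.012), without overlap but on 6 to 27 reads a library. Voom did not call it (adjusted p = 0.0536), nor did limma without 27°C with mannitol replicate 2 (adjusted p = 0.0659).

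Without 27°C with mannitol replicate 3 the falls numbered 6, and without its replicate 2 the rises numbered 3; 8 of the 15 calls held without any 1 library. Of the fork and origin genes 8 of 27 fell and 2 rose, ORC6 and ORC2, subunits of the origin recognition complex, falling by 0.76 ± 0.17 and 0.57 ± 0.19. With median-of-ratios rescaling 14 fell and 1 rose. Of 13 further mitosis and cytokinesis genes 2 fell and 2 rose, 15.4% each, against 16.5% and 37.5% of all tested genes. For these, 4 fell and 1 rose with rescaling. All 5 H3.1 histone genes fell, AT1G09200 by 0.95 ± 0.08 and AT3G27360 by 0.90 ± 0.21. Of 11 regulators 6 rose (54.5%, against 37.5% of all tested genes), 2 with rescaling, MYB3R-3 by 0.64 ± 0.11 and PC-MYB1 by 0.47 ± 0.12. None of the 5 shoot or 6 stomatal lineage markers was called here (limma), 2 shoot and no stomatal markers having an unadjusted p below 0.05 and voom calling 2 of the shoot markers and none of the stomatal ones. With rescaling 3 of the shoot and 1 of the stomatal lineage markers fell. Of mature leaf markers 3 of 4 fell and 1 rose, and of root tissue markers 2 of 5 fell, under both scalings. Of root meristem markers 1 of 5 rose (20%, against 37.5% of all tested genes) and 1 fell. With either rescaling none of the root meristem markers rose and 1 fell. Their part in these results was not tested.

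Both treatments together, 27°C with mannitol against 21°C without it, lowered 15 of the 38 genes and raised 3, or 39.5% and 7.89%, against 15.0% and 48.0% of all tested genes (median -0.12 against 0.27). In either direction 18 of 38 changed, against 63.0% of all tested genes. With rescaling 22 fell and 3 rose. S phase genes fell in 10 of 11 cases, led by PCNA1 (-1.14 ± 0.14, adjusted p = 5.56e-06, limma), CYCA3;1 (-0.71 ± 0.12) and MCM3 (-0.62 ± 0.09). MCM3 had 16.4, 18.1 and 14.9 TPM at 27°C with mannitol, against 24.0, 26.6 and 26.8 TPM at 21°C, without overlap. MCM4 was the exception at -0.07 ± 0.09. CDC6, not called in any other comparison, fell by 0.44 ± 0.17 (adjusted p = 0.0388), with 3.097, 2.67 and 2.98 TPM at 27°C with mannitol, against 3.35, 4.92 and 4.76 TPM at 21°C.

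In mitosis 4 of 14 fell, CYCB1;1 by 0.54 ± 0.10, KNOLLE by 0.53 ± 0.11, CYCB1;2 (AT5G06150) by 0.41 ± 0.08 and CYCA1;1 (AT1G44110) by 0.24 ± 0.10. CYCB1;2 had 35.8, 33.0 and 30.8 TPM at 27°C with mannitol, 33.6, 32.1 and 30.0 TPM at 27°C, 41.0, 37.7 and 41.7 TPM at 21°C with mannitol and 45.2, 42.3 and 46.0 TPM at 21°C. Each library with warmth was below each without it. The 3 rises were CYCD1;1 (0.98 ± 0.11, adjusted p = 2.34e-06), CYCD3;1 (0.57 ± 0.07, adjusted p = 5.38e-06) and CDKA;1 (0.52 ± 0.07, adjusted p = 1.41e-05), and rescaling kept their direction and call. They make up 42.9% of the 7 entry genes, below the 48.0% of all tested genes that rose. CYCD1;1 averaged 27.1 ± 1.24 TPM with both treatments and 13.2 ± 1.03 TPM at 21°C (SD, n = 3 each), a TPM 105% higher. E2FA fell by 0.42 ± 0.15, a call lost without 21°C replicate 3 (adjusted p = 0.0935) or 27°C with mannitol replicate 3 (adjusted p = 0.0917), and 12 of the 18 calls held without any 1 library. No inhibitor was called by limma or voom, while SMR1 had an unadjusted p below 0.05 and was called lower with rescaling (-0.66, adjusted p = 0.0286). Without 27°C replicate 2, the rises numbered 5.

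In the wider lists 12 of 27 fork and origin genes fell and 3 rose (CDT1B at -0.80 ± 0.13, ORC6 at -0.75 ± 0.17), while with rescaling 17 fell and none rose. All 5 H3.1 histone genes fell (median -1.02). Of 13 further mitosis and cytokinesis genes 3 fell and 2 rose, or 23.1% and 15.4%, against 15.0% and 48.0% of all tested genes. For these, 8 fell and none rose with rescaling. Further inhibitors had 3 of 11 higher and 1 lower, or 27.3% and 9.09%, both below the 48.0% and 15.0% of all tested genes. The locus AT1G10690 stood at 1.19 ± 0.19 and ICK3 at 0.67 ± 0.16, and with rescaling 2 were higher and 2 lower. All 6 stomatal lineage markers fell, EPF2 by 1.53 ± 0.22, with sums between 51.5 and 54.1 TPM at 27°C with mannitol, against between 80.8 and 92.6 TPM at 21°C. Mature leaf markers fell in 3 of 4 cases, CAB3 by 3.88 ± 0.08, to sums between 32542 and 33869 TPM at 27°C with mannitol, against between 69333 and 71124 TPM at 21°C. Root tissue markers rose in 4 of 5 cases, also with rescaling, to sums between 275 and 300.2 TPM at 27°C with mannitol, against between 157 and 219 TPM at 21°C. Of 5 root meristem markers 3 rose (60%, against 48.0% of all tested genes), none with rescaling, and 1 fell. Of 5 shoot markers 1 rose and 1 fell, with none higher and 3 lower with rescaling. Their part in the falls of S phase genes was not tested.

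**Figure D5:**
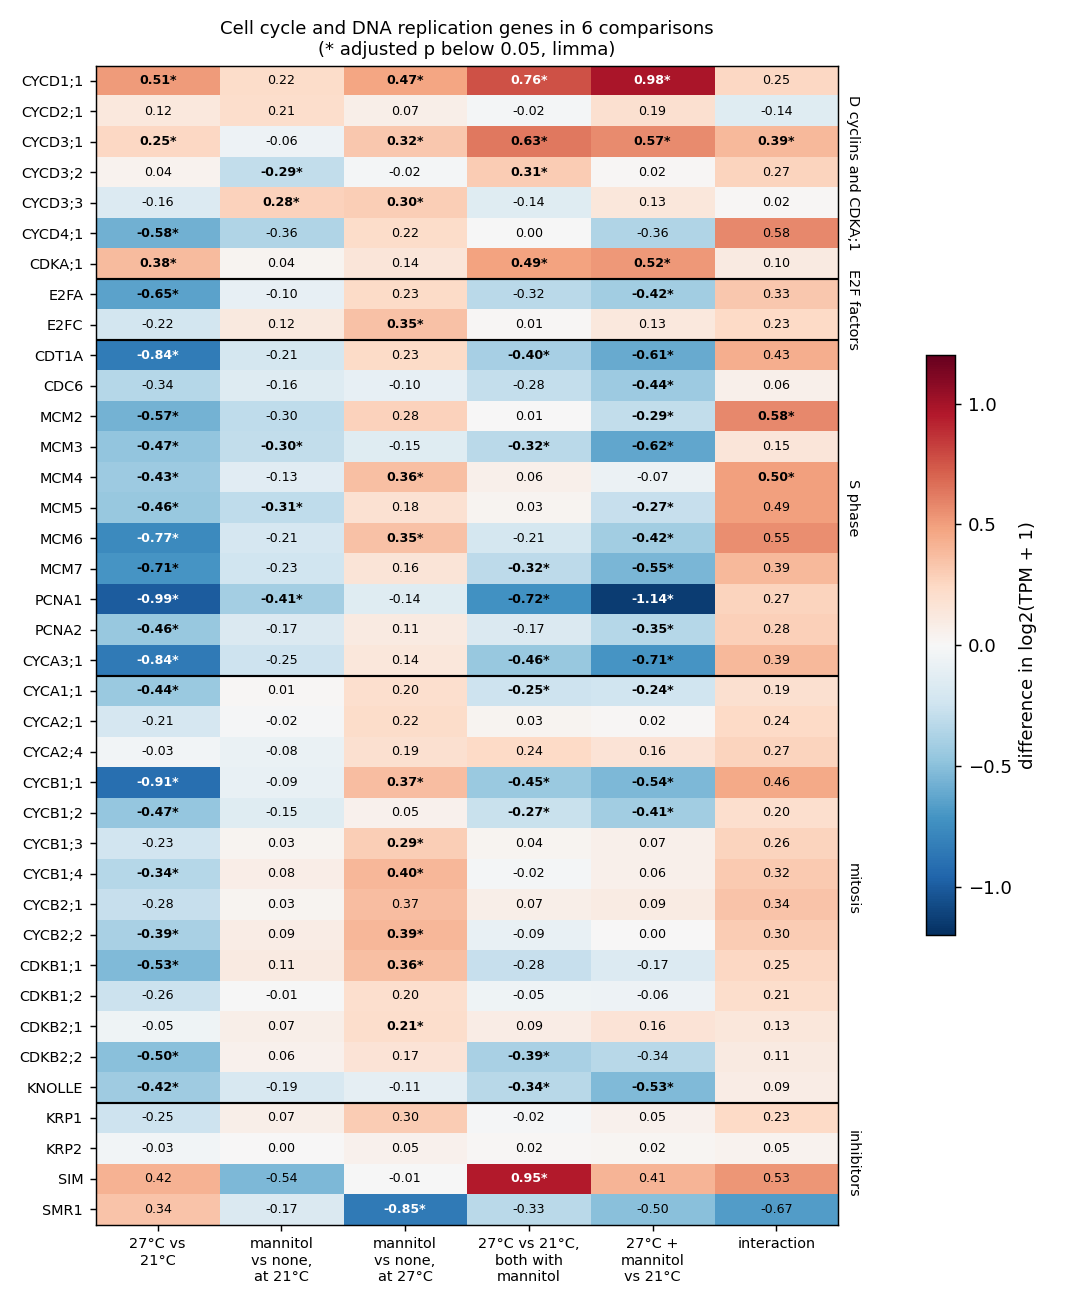
Differences in log2(TPM + 1) of all 38 genes (rows, by class) in 5 comparisons and the interaction (columns), coloured from lower (blue) to higher (red), with stars at an adjusted p below 0.05. The S phase rows are blue in warmth, from -0.99 for PCNA1 to -0.34 for CDC6, and the interaction column is positive in 36 of 38 genes.

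The interaction asks whether the warm response with mannitol differed from that without it, as the warm difference with mannitol minus the warm difference without. Of the 38 genes 3 passed, all with a positive difference, or 7.89%, against 2.43% of all tested genes higher, 2.69% lower and 5.12% in either direction. Positive differences were found in 36 of 38 genes, with a median of 0.27 against 0.07 for all tested genes, and in all 11 S phase and all 14 mitosis genes. With rescaling the counts of positive differences were 34 of 38, 11 of 11 and 14 of 14, and none of the 38 passed. At an unadjusted p below 0.05 there were 10, of which 7 were S phase and 2 mitosis genes, and voom called 4. The sign is not particular to the members. As deposited, it was positive in all 13 further mitosis and cytokinesis genes, 25 of 27 fork and origin genes and all 7 DNA damage genes. The same held for all 6 stomatal lineage and 5 tested shoot markers, but for 3 of 5 H3.1 genes and no root tissue or mature leaf marker. The share over all tested genes was not counted.

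MCM2 had 21.6, 20.8 and 20.6 TPM at 27°C with mannitol, 19.3, 14.0 and 18.6 TPM at 27°C, 20.9, 21.1 and 20.7 TPM at 21°C with mannitol and 23.8, 27.2 and 27.1 TPM at 21°C. With mannitol the warm and cool libraries overlap, and without it every warm library was below every cool one. Its interaction was 0.58 ± 0.15 (adjusted p = 0.0385, limma). MCM4, in the values above, gave 0.50 ± 0.12 (adjusted p = 0.0303), with the 27°C libraries below the other 9. CYCD3;1 gave 0.39 ± 0.10 (adjusted p = 0.0323), its rise in warmth being 0.63 ± 0.07 with mannitol and 0.25 ± 0.07 without. Rescaling ended all 3 calls, at adjusted p = 0.0557, 0.0604 and 0.113, and 6 genes passed without replicate 1 at 27°C. None passed when replicate 2 at 21°C, replicate 1 or 3 of 21°C plus mannitol, or replicate 1 of 27°C plus mannitol was left out. Only 1 passed when replicate 3 at 21°C, replicate 3 at 27°C, or replicate 2 of either mannitol group was left out. Near the threshold were MCM6 (0.55 ± 0.16, adjusted p = 0.0581), CDT1A (0.43 ± 0.12, adjusted p = 0.0585) and MCM5 (0.49 ± 0.14, adjusted p = 0.0672).

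For PCNA1 the interaction was 0.27 ± 0.19, with a 95% interval of -0.15 to 0.69, and for CDC6 it was 0.06 ± 0.25, neither of which passed. The warm differences of the 11 S phase genes thus lay between -0.72 and 0.06 with mannitol and between -0.99 and -0.34 without it. Those of the 14 mitosis genes lay between -0.45 and 0.24 with mannitol and between -0.91 and -0.03 without it. Outside the list POLA2 passed at 0.57 ± 0.15, alone among 27 fork and origin genes, and of the shoot and young leaf markers AN3 and ANT passed at 0.54 ± 0.13 and 0.47 ± 0.11, while TMM passed among the stomatal lineage markers at 0.50 ± 0.13. With rescaling 1 of the shoot markers passed and neither POLA2 nor a stomatal lineage marker did. The part of these markers in the interaction of MCM2, MCM4 and CYCD3;1 was not tested.

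Gene models bear on some of these values. The strand of counting is not stated, and 13 of the 38 genes overlap an exon of a gene on the opposite strand, so reads of the 2 cannot be told apart there. They are CYCD1;1, CYCD3;2, E2FA, CDC6, MCM7, PCNA2, CDKB1;1, CDKB1;2, CDKB2;1, CDKB2;2, KNOLLE, SIM and SMR1. CYCD3;1 overlaps an exon of a gene on its own strand.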

How the data were processed

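RNA from 12 seedling samples was sequenced after extraction with an Eastep column kit and library preparation with NEBNext Ultra RNA, per the labels' protocols. The authors deposited TPM values per gene with Araport11 locus identifiers. The submitters' processing notes name fastp 0.20.1, HISAT2 2.1.10, DESeq2 1.26.0 and TAIR10, without roles. The sources used here do not name the counting tool, gene lengths or strand setting. The header holds 1 name fewer than the columns, and names were matched to the data columns after the identifier.

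Genes with at least 1 TPM in at least 3 libraries were kept, log2(TPM + 1) was fitted over all 4 groups with limma 3.58.1 (trend, R 4.3.3), and p-values were adjusted by Benjamini-Hochberg over all 20005 tested genes with a threshold of 0.05. The pseudocount understates changes of low genes. Whole reads were recovered from the TPM steps (within 0.01 reads for 21760 of 21760 genes above 0 in at least 6 libraries) to give depth and to run voom, an alternative chosen after seeing the data. Other alternatives were median-of-ratios and upper-quartile rescaling, other filters, no trend, a replicate block, only the groups compared, and leaving out each library. The fit was tested on simulated data. In each class the text names the 3 called genes with the largest change per comparison, or all where fewer were called. Further called genes are named in some comparisons. In each other list it names up to 2, besides genes not called that are given for contrast. The members and lists were chosen with earlier results of these data known.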

Additional observations from a re-analysis of the deposited data

Results flagged for a closer look

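By limma's interaction term, 3 of the 38 genes were called as responding differently to warmth with mannitol than without it. This is 7.89%, against 5.12% of all tested genes in either direction. The difference was 0.39 for CYCD3;1, 0.58 for MCM2 and 0.50 for MCM4 on the log2(TPM + 1) scale. None of the 3 passed with median-of-ratios rescaling, and each was lost when single libraries were left out. Groups of 3 libraries are too small for a test of single outlying libraries.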

How the results depend on the processing

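No gene called in a comparison changed direction among the alternatives run, but values near 0 did. With mannitol at 27°C the S phase median was 0.16 as deposited and -0.02 with median-of-ratios rescaling, and with mannitol at 21°C 8 and 1 of 14 mitosis genes were positive. Counts of the 38 genes that moved by more than 1.5 times were as follows, and the cause was not tested. For mannitol at 21°C, higher and lower calls numbered 0 and 2 with no filter, 0 and 8 with either rescaling, 0 and 1 with no trend, and 0 higher by voom. For mannitol at 27°C, they numbered 0 and 2 with median-of-ratios and 1 and 2 with upper-quartile rescaling, 0 lower with a mean of at least 5 TPM, 7 higher with only the groups compared and 7 higher by voom. For the interaction, higher calls numbered 5 with a mean of at least 5 TPM, 0 with median-of-ratios and 1 with upper-quartile rescaling, and 1 with no trend. The replicate numbers did not pair the libraries (correlation of same-numbered residuals -0.076 to 0.13, and 0 of 12 libraries closest to their own number), and a replicate block gave 0 higher and 2 lower calls for mannitol at 21°C and no other such move. Leaving out each library gave 3 to 3 higher and 18 to 20 lower calls for warmth, 0 to 1 and 0 to 5 for mannitol at 21°C, 5 to 12 and 0 to 1 for mannitol at 27°C, 3 to 5 and 6 to 11 for warmth with mannitol, 3 to 5 and 11 to 15 for both treatments, and 0 to 6 and 0 to 0 for the interaction. Over all tested genes, median-of-ratios rescaling gave 4405 higher and 4351 lower calls for warmth, against 5636 and 3322 as deposited, and 2346 and 2983 for mannitol at 27°C, against 5544 and 1361. Depth limits SIM and SMR1 most.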

Other observations

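Among cyclins outside the list, CYC3B rose by 0.50 ± 0.16 with mannitol at 27°C and by 0.78 ± 0.16 with both treatments (rescaling ended the first of these calls), while CYCD6;1 fell by 0.69 ± 0.17 with mannitol at 21°C (limma, adjusted p = 0.0284, 0.000742 and 0.00864). The DNA damage kinase ATM rose by 0.61 ± 0.19 in warmth with mannitol (adjusted p = 0.013), a call that rescaling ended.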
